A study of Nicotiana tabacum with 6 samples.

Results

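Among 69491 tobacco gene models measured by RNA-seq in BY-2 cells, 68 (0.0979%) had no read in any uninduced library and a level of at least 1 CPM in every induced library. CPM is the number of reads of a gene model scaled to a library of 1000000 reads. BY-2 is a tobacco (Nicotiana tabacum, cultivar Bright Yellow 2) cell suspension that divides rapidly, and the line used here carried an inducible Arabidopsis PIN5 transgene (AtPIN5). Both groups carried the transgene, grew in the dark on a medium with the synthetic auxin 2,4-D, and were sampled after 48 h. The induced group (EST, 3 libraries) had received 1 µM β-estradiol in DMSO and the uninduced group (DMSO, 3 libraries) DMSO alone. No estradiol-treated cells without AtPIN5 were analysed here, so an effect of AtPIN5 and an effect of estradiol itself cannot be told apart. The labels call the libraries of a group biological replicates and do not describe how separate the cultures were, so p-values rest on the library-to-library spread, part of which may be technical.

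PIN proteins are auxin carriers, and PIN5 is one of the short-loop members that sit at the endoplasmic reticulum, where they move auxin between the cytosol and the lumen of the reticulum. PIN5 is known in Arabidopsis for its influence on auxin balance and auxin metabolism inside the cell. Estradiol is not a plant hormone and is used in plant cells as a chemical switch for a transgene through an engineered activator. A gene model without reads under control conditions is one whose transcript, if present, lay below what the sequencing depth can detect.

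The members were chosen on their reads in all 6 libraries, so their absence from DMSO and presence in EST are the rule itself and not a finding. The files give the gene models as Nitab4.5 identifiers without names or descriptions, and 0 of them matched the reference gene table of tobacco K326. No gene name, role, pathway list or cell type marker is therefore given for them, and the labelled cell type could not be checked against markers. By a fixed rule the 2 members with the highest lowest-EST level are given by identifier. Other members are referred to by their place in that order, from 1 for the highest to 68.

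AtPIN5 itself held 29, 5 and 14 reads in DMSO 1, 2 and 3, which is 1.76, 0.381 and 0.923 CPM. It held 30.8, 116 and 413 CPM in EST 1, 2 and 3. No EST library overlapped a DMSO library, and the level differed 13.4-fold between EST 1 and EST 3.

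The libraries held 11776200 to 17281183 reads. Per the labels, a company named Novogene sequenced all DMSO libraries and EST 1, and a company abbreviated IAB sequenced EST 2 and 3, so the only within-company comparison of treatment is EST 1 against DMSO. The libraries also stood unevenly apart. Over 33956 tested entries the SD of the log2 difference was 0.41 between DMSO 2 and 3, 0.82 and 0.84 between DMSO 1 and each of these, 0.68 between EST 2 and 3, and 1.18 and 1.26 between EST 1 and each of those. DMSO 1 also lay nearer to each EST library than DMSO 2 and 3 did, and was farthest from EST 1. Its SD was 1.35, 1.26 and 1.17 from EST 1, 2 and 3. For DMSO 2 and 3 the SD was 1.75 and 1.77 from EST 1, and 1.34 and 1.35 from EST 3.

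The deposited read estimates of the 68 members were exactly 0 in all 3 DMSO libraries before any rounding. Together the DMSO libraries held 44785295 reads, and a count of 0 in them allows up to 3 reads, or 0.067 CPM. Against that floor over the DMSO group, the level over the EST group, from the reads summed over its libraries, was at least 17.3-fold to at least 663-fold higher, with a median of at least 66.3-fold. These bounds cover counting error only. They are in CPM, which is not scaled for length, and are less sure for short members, as described with the entry lengths below.

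Nitab4.5_0013314g0010.1, with an entry of 1038 bases, had the highest lowest-EST level of the set. It held 0 reads in DMSO 1, 2 and 3 and 178, 609 and 1162 reads in EST 1, 2 and 3. Its level was 15.1, 35.2 and 78.2 CPM in these EST libraries. The order of the 3 libraries was that of AtPIN5, with EST 1 lowest and EST 3 highest. This member was the only 1 of the 68 above 10 CPM in every EST library, and over the EST group it was at least 663-fold above the DMSO floor. Its mean was 42.9 ± 32.2 CPM (SD, n = 3).

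Nitab4.5_0003904g0060.1, with an entry of 1107 bases, came second. It held 0 reads in each DMSO library and 82, 345 and 217 reads in EST 1, 2 and 3. The level was 6.96, 20.0 and 14.6 CPM, lowest in EST 1 and highest in EST 2. Its mean was 13.8 ± 6.53 CPM (SD, n = 3). From the reads summed over the EST libraries, the level was at least 219-fold above the DMSO floor. Its read estimates were whole numbers in every library, whereas those of Nitab4.5_0013314g0010.1 were not.

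Most members stood at a low level in at least 1 induced library. For EST 1, 2 and 3 the medians over the members were 5.10, 3.12 and 2.96 CPM. In 41 members the lowest EST level was under 2 CPM, 5 members exceeded 5 CPM in every EST library, and 30 exceeded 10 CPM in at least 1 of them. Scaled for entry length, the median member lay at 7.63, 5.55 and 5.93 TPM (the deposited abundance scaled for length) in EST 1, 2 and 3. That was above 62.2%, 56.7% and 58.2% of the entries detected in those libraries, which include entries with 1 read. Members had to reach 1 CPM, so this place is partly set by the rule. The median of the mean EST TPM was 7.46 over the members and 9.12 over the other entries at 1 CPM or more in each EST library. The levels of the members summed to 682, 336 and 512 CPM in EST 1, 2 and 3, of which the top 3 members of each library made up 33.6%, 22.5% and 36.1%.

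**Figure D1:**
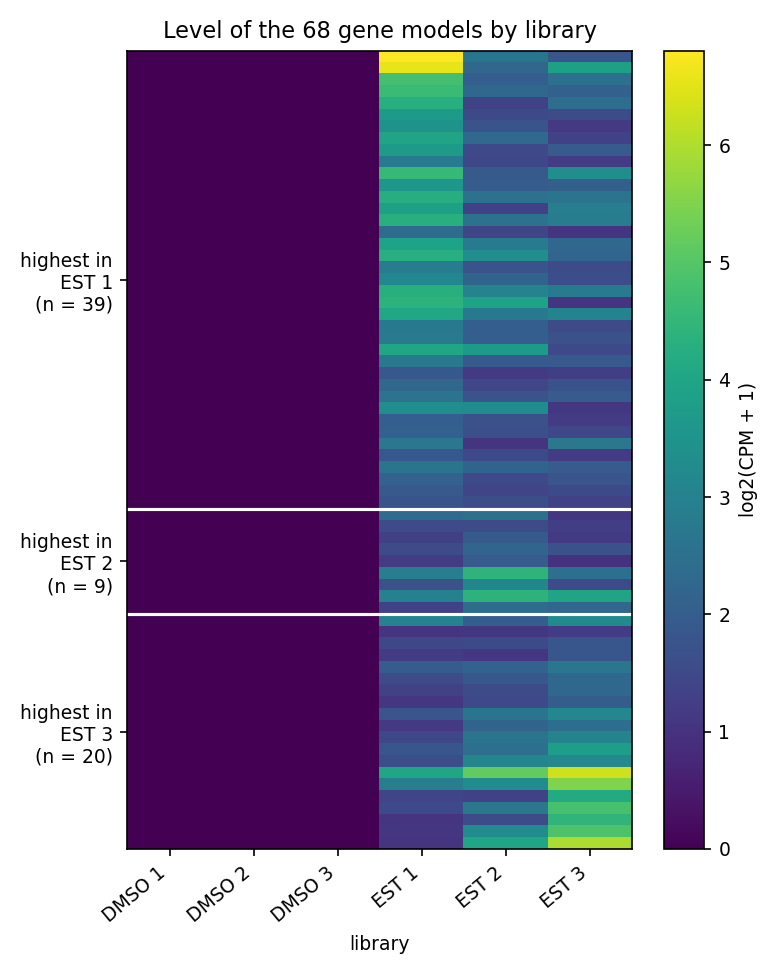
Level of each of the 68 gene models (rows) in the 6 libraries (columns) as log2(CPM + 1), grouped by the EST library in which the gene model is highest. The DMSO columns are at 0 by the rule. The brightest rows stand out in EST 1 or in EST 3, and 39 members are highest in EST 1, 9 in EST 2 and 20 in EST 3.

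The thresholds cut through a continuous range. Just inside the CPM limit, the member placed 68 had a lowest EST level of 1.01 CPM, from 15 reads. Those placed 65, 66 and 67 were tied at 1.02 CPM, from 12 reads each. Just outside, 3 entries with 0 reads in DMSO as well each had a lowest EST level of 0.942 CPM, from 14 reads in EST 3. Along the other limit, 28424 entries reached 1 CPM in every EST library. Of these, 68 had 0 reads over the DMSO libraries together, 46 had 1 read, 34 had 2 and 38 had 3.

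The members are a small share of the entries without DMSO reads. In all, 23690 entries had 0 reads in every DMSO library, and 0.287% of these were members, while 18917 had no read in any of the 6 libraries. Of those 23690, 281 reached 1 CPM in 1 EST library and 229 in 2. Among the latter, 169 reached it in EST 2 and 3 but not in EST 1, against 34 in EST 1 and 2 and 26 in EST 1 and 3.

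The size of the set depended most on DMSO 1 and on EST 1. Because the rule sets a condition on each library, leaving 1 out can only keep or enlarge the set. Without DMSO 1 the same rule gave 180 gene models and without EST 1 it gave 237, against 77 without DMSO 2, 89 without DMSO 3, 94 without EST 2 and 102 without EST 3. The 112 entries that DMSO 1 alone kept out held 1 to 90 reads there, with a median of 4. Of them, 26 held a single read and 22 at least 10. The 9 entries that DMSO 2 alone kept out held at most 6 reads, and the 21 that DMSO 3 alone kept out at most 5.

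**Figure D2:**
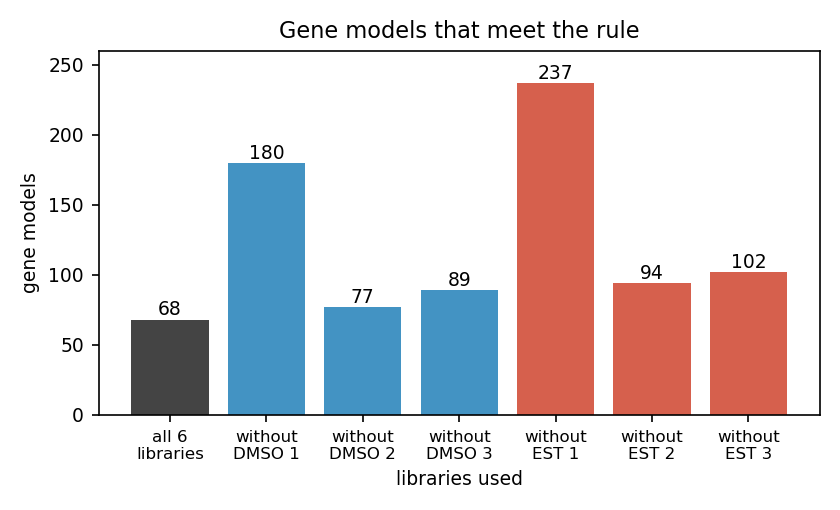
Number of gene models that meet the rule with all 6 libraries and with each library left out. Bars start at 0. The count is 68 with all libraries and is highest without EST 1 (237) and without DMSO 1 (180).

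The induced libraries differed widely in the members. The ratio of the highest to the lowest EST level ranged from 1.25 to 60.3, with a median of 3.78, and 11 members (16.2%) stayed within 2-fold. Among the 28356 other entries at 1 CPM or more in each EST library, the median ratio was 1.80 and 59.5% stayed within 2-fold. Counting error widens ratios of low counts, and for entries with a mean EST level under 10 CPM the medians were 2.96 in 53 members and 1.92 in 12642 others. This difference in spread is a description and was not tested.

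The flattest member, placed 65, held 12, 20 and 19 reads in EST 1, 2 and 3, which is 1.02, 1.16 and 1.28 CPM. The steepest, placed 66, held 1.02, 14.9 and 61.4 CPM. Both sat just above the limit in EST 1, and they differed in EST 2 and 3.

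Many members were unequal between EST 1 and the pair EST 2 and 3. The level in EST 1 was over 2 times the mean of EST 2 and 3 in 28 members (41.2%) and under 0.5 times that mean in 16 (23.5%). Among the 28356 other entries 3414 (12.0%) and 4267 did so. The median ratio of EST 1 to the mean of EST 2 and 3 was 1.69 over the members and 0.954 over the other entries. In TPM it was 1.35 over the members.

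The member placed 21, an entry of 261 bases, was the highest in EST 1. It held 111, 5.21 and 2.49 CPM in EST 1, 2 and 3, with 90 and 37 reads in EST 2 and 3. In TPM it stood at 1698, 39.1 and 19.8. The effective length, by which TPM is scaled, was 36 bases for it in EST 1 and 96 and 90 bases in EST 2 and 3. The TPM contrast is therefore wider than the CPM contrast, in which EST 1 was already 28.8 times the mean of EST 2 and 3.

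The member placed 10, an entry of 777 bases, held 92.1, 3.70 and 13.5 CPM in EST 1, 2 and 3. The member placed 44 has the same length and the next number on the same scaffold, and held 218, 26 and 65 reads, which is 18.5 CPM in EST 1 and 4.37 CPM in EST 3. Both were highest in EST 1 and lowest in EST 2, and the first was 4.98, 2.46 and 3.09 times the second in EST 1, 2 and 3. Neither had whole-number read estimates, and which entries share their reads is not known here.

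The opposite pattern, with EST 3 over 10 times EST 1, was seen in 4 members, and in all 4 the ratio was above the 13.4-fold of AtPIN5. The member placed 66 held 1.02, 14.9 and 61.4 CPM, and the member placed 59 held 1.10, 8.91 and 29.1 CPM in EST 1, 2 and 3. The member placed 32 held 1.87, 5.50 and 27.1 CPM, and the member placed 67 held 1.02, 1.97 and 21.1 CPM. All had the order of AtPIN5, and all 4 had a read estimate that was not whole. Over the whole set, 17 of 68 members had the order of AtPIN5, against 7556 (26.6%) of the other entries at 1 CPM or more in each EST library. In 21 members (30.9%, against 20.6% of the other entries) EST 1 was highest and EST 3 lowest, and in 18 (26.5%, against 18.6%) EST 1 was highest and EST 2 lowest. With 1 library at each AtPIN5 level, a relation to that level was not tested.

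EST 2 and 3, from the same company, also differed. The level in EST 3 was over 2 times that of EST 2 in 15 members and under 0.5 times in 11, and 42 (61.8%) stayed within 2-fold, against 91.5% of the other entries. EST 3 was lowest relative to EST 2 in the member placed 62, which held 20.2 and 14.4 CPM in EST 1 and 2 but 1.08 CPM in EST 3. With 1 library on each side, this difference was not tested.

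The rule used the level in every EST library, so the difference between the companies within EST is given as a description and nothing is read from its calls. In a fit with treatment and company over all 33956 entries, edgeR's quasi-likelihood test put 3 members at an adjusted p under 0.05, all with EST 2 and 3 (IAB) below EST 1, beside 4.15% of all entries, 1.52% higher and 2.63% lower in IAB. At an unadjusted p under 0.05 there were 26 of the 68 members, 19 lower and 7 higher, beside 9415 (27.7%) of all entries. The median log2 difference, IAB minus Novogene, was -0.80 over the members and 0.03 over all entries. EST 1 is the only induced Novogene library and held the least AtPIN5, at 30.8 CPM against 116 and 413 CPM in EST 2 and 3. Company, culture and AtPIN5 level therefore cannot be told apart in this contrast.

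The 3 members so called were those placed 21, 13 and 12. The member placed 13, an entry of 360 bases with whole-number estimates, held 26.2, 3.12 and 4.71 CPM in EST 1, 2 and 3. The member placed 12, of 1461 bases, held 23.7, 3.82 and 3.30 CPM. In all 3, EST 1 stood far above both other induced libraries.

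The number called changed with the set of libraries and with the tool, among the members as among all entries. By edgeR it was 17 members without DMSO 1, beside 24.2% of all entries, 1 without DMSO 2 (1.13%) and 1 without DMSO 3 (1.25%). Without EST 2 and without EST 3 it was 0 members and 0 entries. These 2 settings leave 1 induced library of each company, and the DMSO reads of a member, all 0, hold no spread between libraries. Nothing is therefore read from the members' count in them. DESeq2 put 12 members under the threshold, 10 lower and 2 higher in IAB, beside 12.0% of all entries. With the replicate number as a block edgeR called 1.66% of all entries, and 19.7% had an unadjusted p under 0.05. For the members this fit cannot show a company difference. With 0 reads in every DMSO library, the replicate terms take up the differences among their EST libraries. Its count of 0 members under either limit was thus fixed by the rule.

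**Figure D3:**
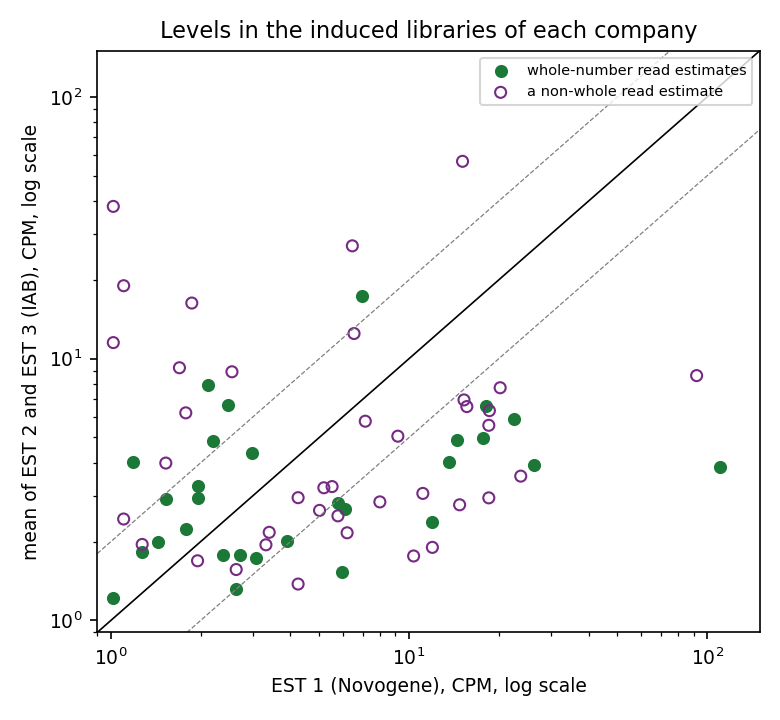
CPM in EST 1 (Novogene) against the mean CPM of EST 2 and 3 (IAB) for the 68 gene models, both on log axes. The solid line marks equal levels and the dashed lines a 2-fold difference. Filled points have whole-number read estimates in all libraries. Members lie on both sides of the line of equal levels, with a ratio over 2 in 28 members and under 0.5 in 16.

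Read estimates bear on how far a level can be assigned to 1 gene model. Tobacco is an allotetraploid with many near-identical gene copies, and Salmon divides reads that match several entries, which leaves estimates that are not whole. Of the 68 members, 29 (42.6%) had whole-number estimates in all libraries, within 0.0015 reads. Counted over the 3 EST libraries, the share was 42.6% for the members and 18.1% for the other 28356 entries. More reads give more chances of a shared read, and under a mean of 10 EST CPM the shares were 45.3% of 53 members and 29.5% of 12642 others. A 0 in DMSO is the absence of reads assigned to that entry, which need not hold for its near-identical copies. This applies to the 39 members without whole-number estimates in particular. Whole-number estimates alone do not show that no read was shared, and shared reads were not counted here.

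Members highest in each of the 3 EST libraries were found among both kinds. Of the 29 with whole-number estimates, 16 were highest in EST 1, 4 in EST 2 and 9 in EST 3, and of the other 39, 23, 5 and 11 were. Their median levels in EST 1, 2 and 3 were 2.97, 2.78 and 2.83 CPM, against 5.77, 3.59 and 3.16 CPM for members without whole-number estimates. The difference between these medians was not tested.

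The members were short for expressed gene models. Their entries ranged from 186 to 4260 bases with a median of 874.5, against a median of 1275 bases for the other entries at 1 CPM or more in each EST library and of 901 bases for all Nitab4.5 entries. Entries under 500 bases made up 30.9% of the members (21), 6.39% of the other expressed entries and 25.6% of all entries. The shortest member, placed 55, held 1.44, 2.78 and 1.21 CPM in EST 1, 2 and 3 and the longest, placed 67, is among the 4 with EST 3 over 10 times EST 1. In length the members thus resembled the annotation as a whole more than its expressed part, a description that was not tested. CPM is not scaled for length, and this comparison was not matched for level. For members under 500 bases the median effective length was 63, 54 and 58 bases in DMSO 1, 2 and 3. In EST 1, 2 and 3 it was 160, 186 and 194 bases. For members of 500 bases or more it was 838, 823 and 829 bases in DMSO and 729, 815 and 816 in EST. The fold bounds over the DMSO floor do not allow for this, so they may be too high for short members.

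**Figure D4:**
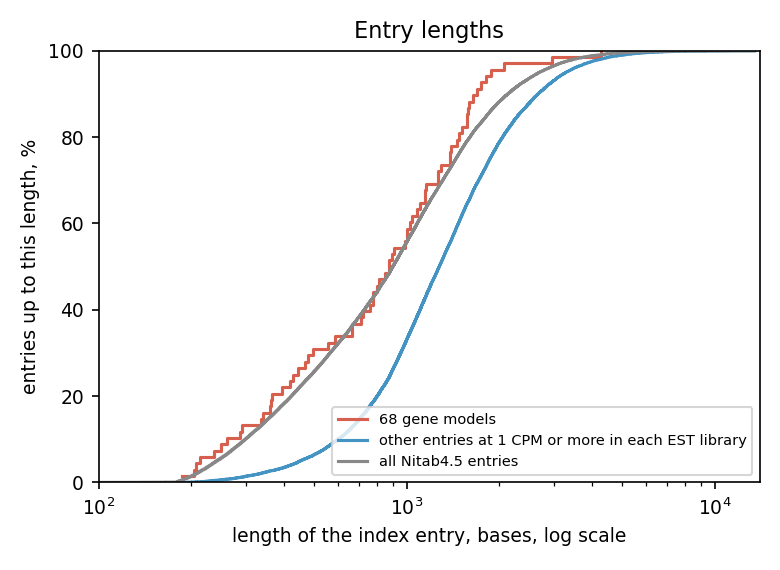
Cumulative share of entries (%) by entry length in bases, on a log axis, for the 68 gene models, for the 28356 other entries at 1 CPM or more in each EST library and for all 69491 entries. The curve of the 68 follows that of all entries and lies to the left of the other expressed entries, with medians of 874.5, 901 and 1275 bases.

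Position was read from the identifiers, in which the digits before the letter g number an assembly scaffold and those after it the gene model along that scaffold. The 68 members lay on 65 scaffolds, and 3 scaffolds held a pair of members. The pair placed 10 and 44 carried consecutive numbers. A second pair, with 1 entry between them, held 4.25, 4.75 and 1.14 CPM in EST 1, 2 and 3 for the member placed 58 and 1.02, 14.9 and 61.4 CPM for the member placed 66. EST 3 was the lowest library in the first and the highest in the second. The third pair, which includes Nitab4.5_0003904g0060.1, had 4 entries between its members, and its other member held 2.46, 5.27 and 8.01 CPM in EST 1, 2 and 3.

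The entries next to a member, the next lower and next higher number on the same scaffold, played no part in the choice of the members and can be tested for treatment. There were 104 such neighbours that are not members, beside 64 of the members. With 0 reads in all 3 DMSO libraries in 37 of them (35.6%), neighbours were near the 34.1% of all entries, and 28.8% were at 1 CPM or more in each DMSO library, against 40.2% of all entries. The filter on low counts left 46 neighbours. By edgeR's quasi-likelihood test in the pooled comparison of EST with DMSO, 8 of these 46 (17.4%) were higher in EST and 0 were lower, against 7.94% higher and 3.17% lower over all 33956 entries. With company as a covariate, 9 were higher and 3 lower, against 13.4% and 11.2% of all entries, and the 8 of the pooled comparison were all among the 9. The fit with company sets EST 1 alone against DMSO, and EST 1 was also in the pooled comparison, so this overlap is no separate check. Whether neighbours differ from other entries in the share called was not tested.

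Of the 8 neighbours, 5 had at most 10 reads over the DMSO libraries together. These 5 passed the filter on low counts through the EST libraries, where they are high, so a difference was built into their being tested. They are given by their levels, without a test, and the count of 8 is no support for a difference of the neighbours. The neighbour of the member placed 15, of 1074 bases, held 0, 0 and 1 read in DMSO 1, 2 and 3 and 38.9, 13.4 and 17.4 CPM in EST 1, 2 and 3. The ratio of the EST to the DMSO group level was 967, with 1 read in DMSO in all. The exact Clopper-Pearson 95% interval for counting error was 173 to 38224. This interval leaves out the spread between libraries and is no test, since this neighbour passed the filter through its high EST levels. Its member, of 426 bases, held 2.97, 3.41 and 5.32 CPM, so the neighbour was 13.1, 3.93 and 3.27 times as high in EST 1, 2 and 3. Both had whole-number estimates in every library.

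The neighbour of the member placed 11 held 8, 1 and 0 reads in DMSO 1, 2 and 3 and 102, 37.6 and 28.7 CPM in EST 1, 2 and 3. The member itself held 18.6, 9.03 and 3.63 CPM and had the same order of libraries. The neighbour of the member placed 5 held 2, 1 and 1 reads in DMSO and 23.8, 6.02 and 12.4 CPM in EST 1, 2 and 3. Entry lengths of 360 bases for this neighbour and 363 for its member were nearly equal, and the member held 15.6, 5.79 and 7.34 CPM. The remaining 2 of these 5 lay beside the members placed 25 and 36, with 15.8, 5.03 and 3.03 CPM and with 1.53, 2.84 and 0.875 CPM in EST 1, 2 and 3.

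The other 3 neighbours were expressed without estradiol. The neighbour of the member placed 4, of 2640 bases, rose from 63.2 ± 13.4 CPM (SD, n = 3) to 152 ± 25.2 CPM (SD, n = 3). The log2 change was 1.24 ± 0.25 (SE), with an adjusted p of 0.0239 by edgeR. Its member went from 0 reads to 18.1, 7.29 and 5.85 CPM. Those beside the members placed 38 and 49 rose by 1.17 ± 0.26 and 2.15 ± 0.29 (SE) on the log2 scale. In each of the 8 neighbours the lowest EST library exceeded the highest DMSO library, which 20.1% of all tested entries also showed. The 8 were picked because they were called higher in EST, so nothing is read from this.

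The number of neighbours called for treatment changed with the libraries, as did the number over all entries. By edgeR it was 10 without DMSO 1 (11.7% of all entries called), 12 without EST 1 (19.3%), 4 without EST 2 (2.28%) and 7 without EST 3 (3516 of 35099 entries, 10%). Without DMSO 2 and without DMSO 3 it was 0, beside 0 and 1 (0.00283%) of all entries. In each of these 2 settings 13 of 50 neighbours had an unadjusted p under 0.05, beside 18.8% and 18.9% of all entries, and their lowest adjusted p values by edgeR were 0.0659 and 0.0655. DESeq2 on all libraries called 10, beside 20.9% of all entries, and edgeR with the replicate block 10, beside 22.3%.

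**Figure D5:**
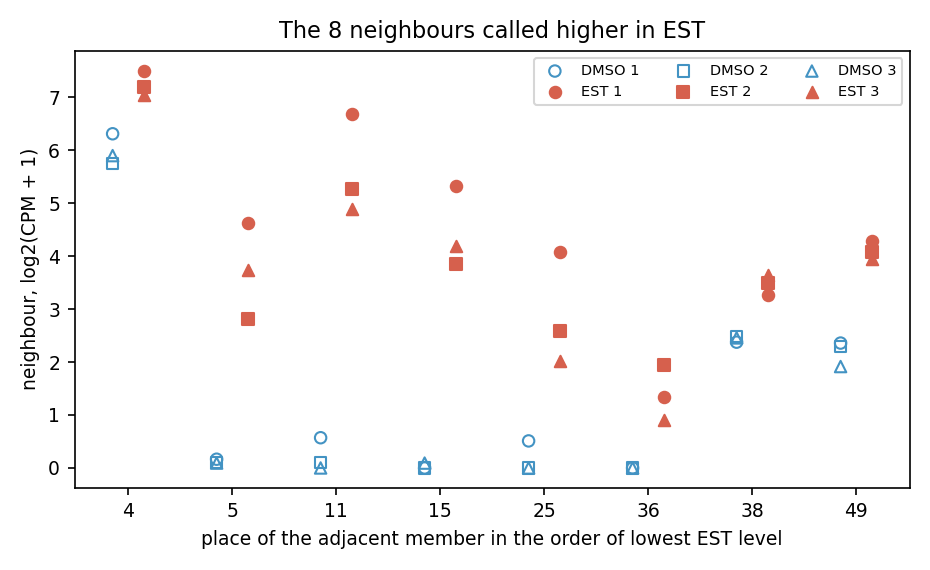
Level of the 8 neighbours called higher in EST, as log2(CPM + 1), in DMSO (open) and EST (filled) libraries; marker shape gives the replicate number and the horizontal axis the place of the adjacent member. In all 8 the EST points lie above the DMSO points, and 5 of the 8 are at or close to 0 in DMSO.

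For the members themselves the treatment contrast was used by the rule, and its calls are given as a description. Of the 68, 67 were called higher by edgeR in the pooled comparison (7.94% of all entries) and 65 with company as a covariate (13.4%). The member not called in the pooled comparison was that placed 21, whose EST libraries are spread the widest in CPM on the linear scale (SD 61.7, n = 3). All 29 members with whole-number estimates were called with company as a covariate, where EST 1 is set against DMSO. The reverse rule, with 0 reads in every EST library and at least 1 CPM in each DMSO library, was met by 5 entries.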

How the data were processed

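The submitters' processing notes name Trimmomatic and Salmon 1.3.0; for the Trimmomatic version, Salmon settings, index and read layout, the sources used here state nothing. The deposited files give an estimated count of reads, TPM, and the length and effective length (other columns, in bases) per entry. As deposited by the authors, the estimated counts carry no normalization; they were rounded to whole numbers here. The TPM values deposited by the authors are scaled for effective length and have the same sum in each library. All 69491 Nitab4.5 entries and AtPIN5 were kept for CPM. Entries for tests were kept by filterByExpr (10 counts, 15 in total), scaled by TMM and tested with edgeR 4.0.16 (R 4.3.3), robust quasi-likelihood, Benjamini-Hochberg adjustment over 33956 entries at 0.05. All 68 members pass that filter by construction. The planned comparison between companies within EST is given for them as a description, since the rule used their EST levels. The test was tried on simulated data. DESeq2 1.42.0 was an alternative.

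Samples were grouped by the treatment label. Members, lists and tests were chosen with earlier results of these data known. Members named by identifier are the 2 with the highest lowest-EST CPM; others described were picked by their place in stated orders, some after their values were seen. Replicate numbers are shared between groups. Deviations of log2 CPM (prior count 2) from the group means correlated at 0.39, 0.12 and 0.33 for replicates 1, 2 and 3, over the criterion of 0.1, so a replicate block was fitted as an alternative; these deviations sum to 0 within a group, so the 3 values are not independent. Intervals and floors cover counting error only. The log2 changes of entries at 0 in DMSO depend on the prior count and are no bounds. No nucleotide or protein sequence is shown.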

Additional observations from a re-analysis of the deposited data

How the results depend on the processing

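With unrounded estimates the rule gave 68 gene models, and with TMM-scaled CPM 67. It gave 130 at 0.5 CPM, 27 at 2 CPM, 114 with at most 1 read over the DMSO libraries, 119 at 1 TPM and 29 with whole-number estimates only. With 1 library left out, which can only keep or enlarge the set, it gave 77 to 237, with 180 without DMSO 1 and 237 without EST 1. The 3 members called between companies by edgeR became 1 to 17 with 1 DMSO library left out, 12 by DESeq2 and 9 without the low-count filter. Their number was 1 with DMSO 2 and 3 summed and stayed 3 under both other scalings. The count of 0 members with the replicate block was fixed by the rule. The count over all entries, 1410, became 0 to 8569 with 1 library left out (0 without EST 2 and without EST 3, where 7958 and 7019 had an unadjusted p under 0.05; 8569 without DMSO 1, 404 without DMSO 2, 442 without DMSO 3), 4084 by DESeq2, 3057 without the filter, 562 with the replicate block and 402 with DMSO 2 and 3 summed. Without EST 1 this contrast could not be fitted. The 8 neighbours called for treatment by edgeR became 0 to 12 with 1 library left out, 0 with DMSO 2 and 3 summed (13 at an unadjusted p under 0.05), 10 with the replicate block and 12 with company as a covariate. Over all entries, 3771 pooled calls became 0 to 6778 with 1 library left out (0 without DMSO 2, with 6706 at an unadjusted p under 0.05; 1 without DMSO 3, 792 without EST 2, 6778 without EST 1), 7110 by DESeq2, 7567 with the replicate block, 1 with DMSO 2 and 3 summed and 8357 with company as a covariate. The median ratio of EST 1 to the mean of EST 2 and 3, 1.69, was 1.35 in TPM, 1.75 with TMM scaling and 1.53 for members with whole-number estimates; it was 1.45 against EST 2 alone and 1.76 against EST 3 alone. With 1 library left out the numbers of calls both fell and rose, and no cause of these changes was tested. The limit of 1 CPM is 12, 18 and 15 reads in EST 1, 2 and 3; depth limits the DMSO group level of a member to under 0.067 CPM.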
